A study of Mus musculus with 15 samples.

Results

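The suprachiasmatic nucleus (SCN) of the hypothalamus is the master circadian clock of mammals, and REV-ERB alpha and REV-ERB beta, encoded by Nr1d1 and Nr1d2, are nuclear receptors that repress transcription within that clock. The data described here are the 7 SCN libraries from mice lacking both receptors (double knockout, DKO), 3 collected at circadian time (CT) 4 and 4 at CT16, out of 15 RNA-seq libraries in all. The members were taken by genotype and time in the labels, and the comparison covers every gene that passed a filter on low counts, 16910 of the 24419 genes in the table. CT4 lies in the subjective day, when mice rest, and CT16 in the subjective night, when they are active. The question is which differences between these times exist without the receptors.

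The mice were C57BL/6 animals aged 8 to 12 weeks, and each library pooled 2 to 4 SCN punches. The groups were DKO at CT4 (3 libraries), DKO at CT16 (4), control at CT4 (3) and control at CT16 (5). The sources used here do not state the alleles, any Cre driver or the lighting schedule behind the circadian times. The labels do not name the animals in a pool, and the p-values therefore reflect variation from pool to pool, which may be partly technical. Read depth was 33168251 to 39263956 counts in the DKO CT4 libraries and 40659635 to 68757624 in the DKO CT16 libraries, so depth and time cannot be told apart. In punches, fewer cells of a type and less RNA per cell also cannot be told apart.

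In the clock, BMAL1 (Arntl) with CLOCK or NPAS2 binds E-box sequences and drives the Per, Cry and Nr1d genes. PER and CRY proteins repress that activity. REV-ERBs compete with the activating ROR receptors at response elements in Arntl, Npas2, Nfil3 and other genes and hold them down during part of the day. A time difference can also reach the SCN from outside this loop, through hormones, neuronal activity or body temperature. Adrenal glucocorticoids are one such signal, and in mice their blood level peaks around the start of the active phase.

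Before the results, 2 libraries need to be named. DKO CT16 replicate 3 correlated better with the DKO CT4 libraries (r from 0.9887 to 0.99 across genes, log2 CPM, counts scaled to library size) than with the other DKO CT16 libraries (0.9803 to 0.9877). It lay nearer to the CT4 mean than to the mean of the other CT16 libraries in 57.8% of tested genes, against 30.6 to 44.2% for the other DKO CT16 libraries. Its score of markers of neighbouring hypothalamic nuclei, the mean centred log2 CPM of 30 genes, was 0.723, inside the DKO CT4 range of 0.534 to 0.86, while the lowest DKO CT16 score was -1.061. DKO CT16 replicate 4 was the highest in myelin, with a summed CPM of oligodendrocyte genes of 22100 against 6930 to 7790 at CT4. DKO CT16 replicates 1, 2 and 3 also lay outside that range, at 4316, 10060 and 4504. No marker of SCN identity was at 0 in all libraries of either DKO group, and single libraries were not checked for this. The summed CPM of the 19 SCN identity genes was 1020 to 1080 at CT4 and 1020 to 1850 at CT16. The table gives 1 count for a whole gene, which leaves the genotype labels unchecked by Nr1d1 and Nr1d2.

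Without the receptors, 304 of the 16910 genes differed between CT16 and CT4 (1.80%, edgeR quasi-likelihood test, adjusted p under 0.05), of which 218 were higher at CT16 (1.29%) and 86 lower (0.509%). The change was more than 2-fold for 31 of the rises and 10 of the falls. The median size of a called change was 0.462 on the log2 scale, against 0.125 over all tested genes. In 300 of the 304 genes the 3 CT4 and 4 CT16 libraries did not overlap, and over all tested genes 2486 (14.7%) showed no overlap. The number of calls depends on single libraries. It was 1461 without DKO CT16 replicate 3. It was 191 and 141 without DKO CT16 replicates 1 and 2, and 161, 103 and 108 without DKO CT4 replicates 1, 2 and 3. A fit on the 7 DKO libraries alone called 47 genes. Summed CPM of 9 nuclear and other long noncoding RNAs, read as signs of RNA quality, was 13800 to 15200 at CT4 and 15600 to 17200 at CT16, and its part in these differences was not tested.

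**Figure D1:**
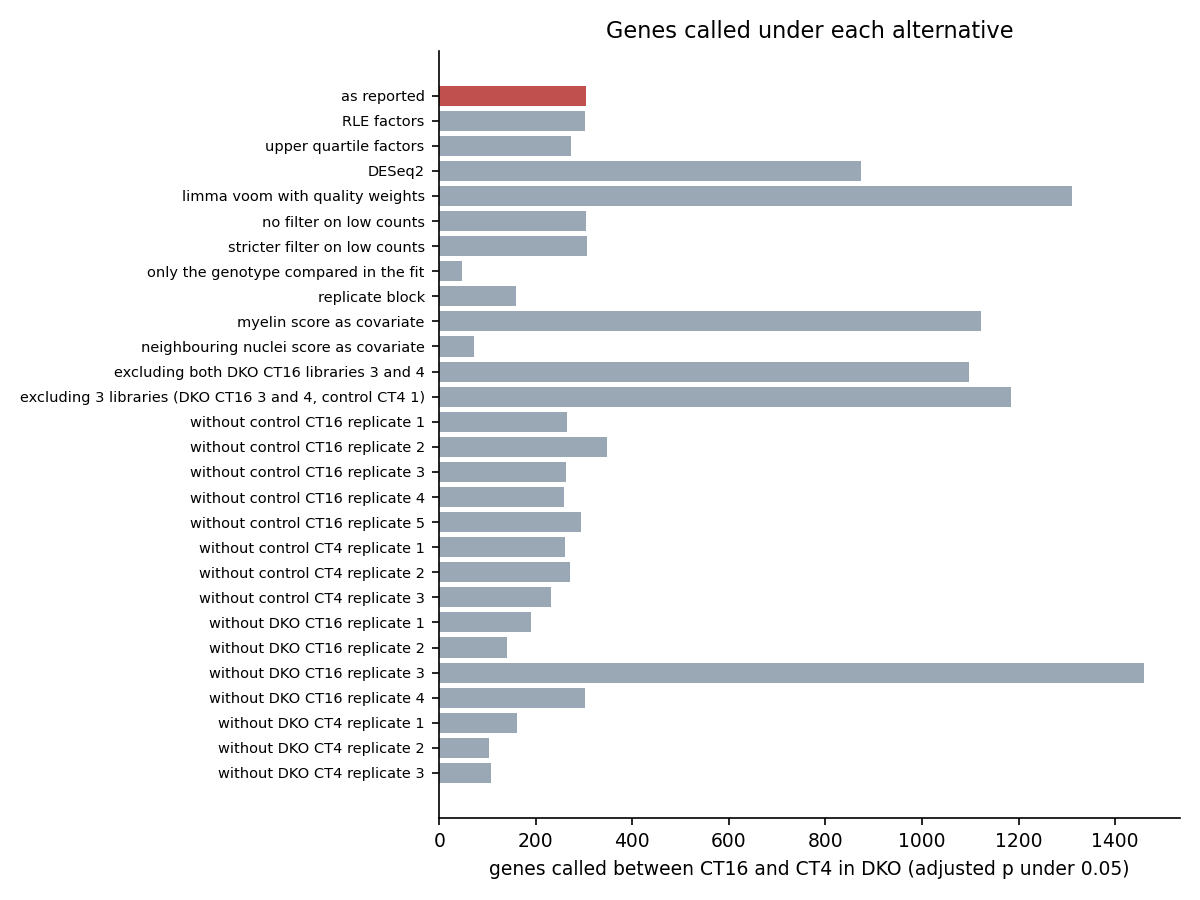
Number of genes called between CT16 and CT4 in DKO (horizontal axis, adjusted p under 0.05) under each way of fitting the data (vertical axis). The reported fit gives 304 genes, and the counts run from 47 with the DKO libraries alone to 1461 without DKO CT16 replicate 3.

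Among the 47 gene lists, the one with the most calls in DKO was that of glucocorticoid-responsive genes, those listed here as induced by glucocorticoids in at least some tissues. Of 23 tested, 15 rose and 0 fell with edgeR, beside 1.29% of all genes rising. At an unadjusted p under 0.05, 20 were higher and 0 lower, beside 18.6% of all tested genes in either direction. DESeq2 and limma voom each called 19 rises and 0 falls. Both also called more of all tested genes than edgeR did, with the counts given at the end. In edgeR's fit the median change was 0.865 on the log2 scale against 0.0078 over all tested genes. All 23 had a change above 0, against 51.8% of all tested genes. In 20 the CT16 libraries lay wholly above the CT4 libraries, beside 14.7% of all tested genes without overlap in either direction. Summed over the list, the CPM was 957 to 1010 at CT4 and 1630 to 2390 at CT16. The list was drawn up with earlier results of these data known. Its number of calls, its rank among the lists and its direction are therefore descriptions and not an independent test. The number that rose was 11 to 18 when single libraries were left out, 6 in the fit on DKO libraries alone and 10 with the neighbouring nuclei score as a covariate. In the summed level of this list all 4 CT16 libraries lay above the CT4 range. The cause of this rise was not tested.

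Tsc22d3 (chrX:140539529-140600522), the glucocorticoid-induced leucine zipper, had the smallest p of all genes. Its CPM was 104, 88.5 and 87.9 in the DKO CT4 libraries and 249, 293, 252 and 267 in the CT16 libraries. The groups were far apart and replicate 3 sat with the other CT16 libraries: the log2 change was 1.50 ± 0.08 (SE, adjusted p = 3.13e-08), a 2.84-fold rise. Cdkn1a (chr17:29090986-29100722), which encodes the cell cycle inhibitor p21, was at 19.3, 20.9 and 19.5 CPM at CT4 and at 66, 92.1, 69.6 and 84.7 CPM at CT16. This is a rise of 1.97 ± 0.15 (adjusted p = 1.19e-05). Sgk1 (chr10:21882184-21999902), the serum and glucocorticoid regulated kinase, went from 33, 26.6 and 24.7 CPM to 115, 207, 129 and 431 CPM. Its spread at CT16 was wide, and the rise of 2.97 ± 0.52 (adjusted p = 0.0148) was lost in 6 of 27 alternative fits. Plin4, a coat protein of lipid droplets, stood at 9.32, 11.3 and 8.76 CPM at CT4 and 45.3, 56.1, 43 and 63.3 CPM at CT16, a 5.3-fold rise (2.41 ± 0.27, adjusted p = 0.000978). Zbtb16, a zinc finger transcription factor, rose by 1.84 ± 0.32 (adjusted p = 0.0125), with 14.6, 12.4 and 16.3 CPM against 34.3, 78.5, 61.4 and 31 CPM.

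Smaller rises came from genes of metabolism and signalling. Ddit4, an inhibitor of the growth kinase complex mTORC1, rose by 1.16 ± 0.14 (adjusted p = 0.00078) and Sult1a1, a sulfotransferase, by 1.05 ± 0.13 (adjusted p = 0.000676). Gjb6, the astrocyte gap junction protein connexin 30, rose by 0.52 ± 0.07 (adjusted p = 0.00103), with 80.5, 82.3 and 79.8 CPM at CT4 and 122, 115, 124 and 103 CPM at CT16. The other members that rose, named here after their values were seen, were Nfkbia, the inhibitor of NF-kappa-B (1.26), Fkbp5, a cochaperone of the glucocorticoid receptor (0.87), Errfi1 (0.76), the transcription factor Klf9 (0.67), Mertk (0.59), the protease Htra1 (0.55) and the clock gene Per1. The 8 members that did not pass included Mt2 (0.56, adjusted p = 0.0511), Pdk4 (1.53, adjusted p = 0.0552) and Dusp1 (0.03, adjusted p = 0.942). Replicate 3 of CT16 lay nearer to the CT4 mean than to the mean of the other CT16 libraries in 3 of the 23 genes of the list, against 57.8% of all tested genes. In the 15 genes that rose this number was 0, which the choice of called genes favours, and in all 304 called genes it was 19.7%.

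**Figure D2:**
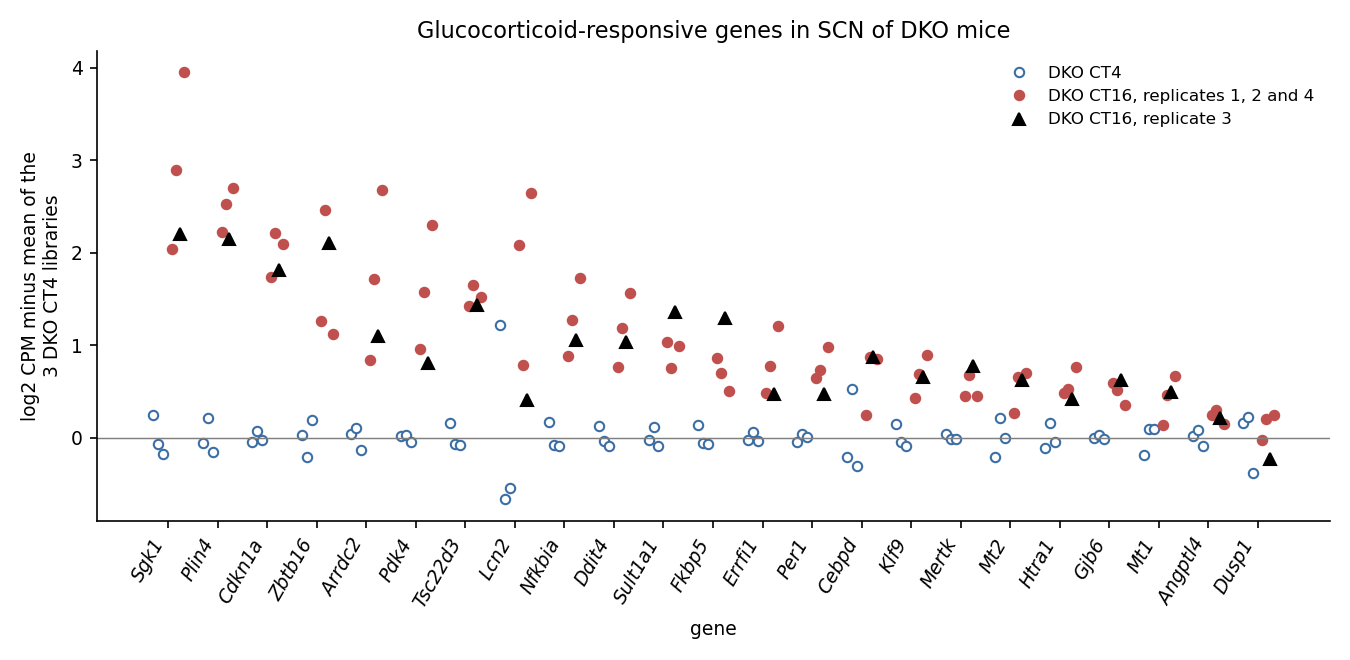
Glucocorticoid-responsive genes in DKO (horizontal axis, by size of change) with log2 CPM of each library minus the mean of the 3 DKO CT4 libraries (vertical axis). Open circles are CT4, filled circles CT16 replicates 1, 2 and 4, and triangles CT16 replicate 3, which lies with the other CT16 libraries for most genes.

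Promoter sequence is shown for 3 of the 12 largest rises. They were picked because their windows hold a match to a response element for glucocorticoid or cyclic AMP signals. No match to either was found for the others of the 12, such as Tsc22d3, Cdkn1a, Plin4 and Zbtb16, though not every named gene has a window. The sequences are RefSeq promoters of GRCm38.p6, 5′ to 3′ on the strand of the gene, and stop at or before the transcription start. Capitals mark a match to ACANNNTGT, the core of the glucocorticoid response element, in Sgk1 and Map3k6, and to TGACGTCA, the cyclic AMP response element, in Arl4d. Both strands were searched in windows from 250 bases before to 50 bases after each start.
Sgk1 (chr10:21993674-21993742, plus strand): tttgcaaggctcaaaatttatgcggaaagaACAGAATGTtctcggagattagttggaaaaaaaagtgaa
Map3k6 (chr4:133240609-133240677, plus strand): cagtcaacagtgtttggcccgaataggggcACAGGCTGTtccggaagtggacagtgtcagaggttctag
Arl4d (chr11:101665485-101665540, plus strand): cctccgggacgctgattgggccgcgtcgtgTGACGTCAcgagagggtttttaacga
The match in Sgk1 begins at position -186 from the start site of this transcript, that in Map3k6 at -179 and that in Arl4d at -26. The ACANNNTGT core was found for 15 of 169 genes higher at CT16 that have a window, 3 of 63 lower genes and 698 of 12563 tested genes (5.56%), and in 6.85% of all windows in the table. Of the glucocorticoid-responsive genes, 20 have a window and 3 of these hold the core. TGACGTCA was found for 8 of 169 higher genes, 0 of 63 lower genes and 412 of 12563 tested genes (3.28%), and in 1.79% of all windows. These matches are descriptions of the letters, and none is shown here to be a site that works.

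Arl4d (chr11:101665541-101667832), a small GTPase of the ARF family, had the largest rise by the naming rule. It was at 3.2, 3.07 and 4.53 CPM at CT4 and at 19, 31.8, 18.2 and 50.2 CPM at CT16, an 8.28-fold rise (3.05 ± 0.38, adjusted p = 0.0019). Map3k6, a stress kinase, rose by 1.52 ± 0.25 (adjusted p = 0.00446) and Plekhf1, an endosomal protein, by 1.84 ± 0.39 (adjusted p = 0.0339). Hif3a, a member of the hypoxia-inducible factor family, was at 10.8, 8.91 and 6.34 CPM at CT4 and 21.6, 25.9, 29 and 21.3 CPM at CT16 (1.49 ± 0.16, adjusted p = 0.000386). Pla2g3, a secreted phospholipase, was at 7.13, 7.1 and 6.02 CPM against 25.3, 14.8, 15.6 and 20.6 CPM, a rise of 1.50 ± 0.19 (adjusted p = 0.000838). In both genes every CT16 library was above every CT4 library.

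Of the 34 immediate early genes, which neurons switch on within minutes of activity or light, 5 rose in DKO and 0 fell, beside 1.29% of all genes rising. They were Fosb, Fosl2, Nr4a3, Crem and Per1. Fosb, an AP-1 subunit, went from 5.69, 3.21 and 1.97 CPM to 20.8, 12.8, 11.2 and 15.1 CPM (2.04 ± 0.37, adjusted p = 0.0138). Fosl2, another AP-1 subunit, was at 14.4, 16.4 and 12.3 CPM at CT4 and at 55.5, 42.7, 35.1 and 50.7 CPM at CT16 (1.68 ± 0.28, adjusted p = 0.0112). Nr4a3, an orphan nuclear receptor, rose by 1.48 ± 0.28 (adjusted p = 0.0191), and Crem, a factor of the cyclic AMP pathway, by 0.46 ± 0.11 (adjusted p = 0.0457, lost in 16 of 27 alternatives). At an unadjusted p under 0.05, 16 were higher and 3 lower, beside 18.6% of all tested genes in either direction. DESeq2 and limma voom, which called more of all genes than edgeR, each called 11 rises and 1 fall. The count of rises was 3, 2 and 1 without DKO CT4 replicates 1, 2 and 3. Without DKO CT16 replicate 3, where 1461 genes were called in all, the count of rises was 11. It was 0 with the neighbouring nuclei score as a covariate, 10 with the myelin score, 1 with the replicate block and 2 in the fit on DKO libraries alone. In control, 12 of the 34 rose and 1 fell, beside 2.13% of all genes rising and 2.08% falling there.

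Few clock genes passed the test. Of 19 tested genes of the core clock and its direct outputs, 3 rose in DKO, 0 fell and 16 did not pass, beside 1.29% of all genes rising. The median change was 0.375 on the log2 scale, against 0.0078 over all tested genes. Of the 19, 17 were above 0, against 51.8% of all tested genes. The 3 were Per1, Npas2 and Nfil3. At an unadjusted p under 0.05, 12 were higher and 1 was lower, beside 18.6% of all tested genes in either direction. DESeq2 called 7 rises and limma voom 8, each with 0 falls, and both called more of all genes than edgeR. Without DKO CT16 replicate 3, 10 passed, in a fit that called 1461 genes in all against 304 in the reported fit. In replicate 3, 14 of the 19 genes lay nearer to the CT4 mean than to the mean of the other CT16 libraries. In each of the other CT16 libraries this held for 1 to 3 genes. In replicate 3 it held for 57.8% of all tested genes. It also held there for 16 of 19 SCN identity genes, 25 of 30 of neighbouring nuclei and 15 of 15 pan-neuronal genes. With the neighbouring nuclei score as a covariate 0 passed and 16 of the 19 were above 0, and with the myelin score as a covariate 9 passed. Over all genes these fits called fewer and more than the reported fit, in that order, with the counts given at the end. With the replicate block 0 passed.

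Among the activators and genes with ROR elements, Npas2, the partner of BMAL1 in place of CLOCK, was at 33.5, 44.7 and 43.3 CPM at CT4 and at 73, 72.4, 45 and 74.7 CPM at CT16. The rise was 0.71 ± 0.16 (adjusted p = 0.038) and was lost in 16 of 27 alternatives. Nfil3, a repressor that opposes the D-box activators, stood at 22.9, 23.7 and 21.2 CPM and at 38.1, 39.1, 22.9 and 38.5 CPM. Replicate 3 lay inside the CT4 range for Nfil3 and just above it for Npas2. The rise of Nfil3, 0.61 ± 0.15 (adjusted p = 0.0439), was lost in 18 of 27 alternatives. Arntl, which encodes BMAL1, was at 63.2, 66.6 and 63.3 CPM at CT4 and 79.6, 92.5, 63.4 and 98.4 CPM at CT16 (0.37 ± 0.15, adjusted p = 0.2). Clock was at 134, 119 and 126 CPM and at 148, 155, 139 and 159 CPM (0.25 ± 0.06, adjusted p = 0.0563). Rorb and Rora, which encode activators at these elements, did not pass: the change was 0.79 for Rorb (adjusted p = 0.14) and 0.59 for Rora (adjusted p = 0.313).

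Of the period and cryptochrome genes, the repressors of the loop, Per1 passed and the other 4 did not. Per1 (chr11:69098956-69109957) was at 91.5, 96.9 and 94.5 CPM at CT4 and at 147, 156, 130 and 186 CPM at CT16, with no overlap. Its rise of 0.72 ± 0.12 (adjusted p = 0.00665) passed in each fit that left out 1 library and was lost with the neighbouring nuclei covariate and with the replicate number as a block. Per1 is also on the glucocorticoid and immediate early lists. Per2 was at 47, 47.4 and 75.4 CPM against 78.5, 93.4, 74.5 and 101 CPM (0.62 ± 0.21, adjusted p = 0.156), so the groups overlapped. Cry1 was at 41.4, 41.2 and 47.2 CPM against 54.4, 57.4, 46.3 and 63.2 CPM (0.35 ± 0.13, adjusted p = 0.164). The change was 0.23 ± 0.08 for Per3 and 0.09 ± 0.05 for Cry2, and neither passed (adjusted p = 0.156 and 0.385).

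Among E-box repressors and output genes 0 of 6 passed in edgeR, with 2 rises in each of DESeq2 and limma voom. For 3 the unadjusted p was under 0.05, beside 18.6% of all tested genes. In 5 of the 6 the change was above 0, against 51.8% of all tested genes. Ciart, a repressor of the BMAL1 complex, was at 19.6, 21.1 and 21.5 CPM at CT4 and at 29.7, 35.2, 24.4 and 36.3 CPM at CT16 (0.60 ± 0.15, adjusted p = 0.0554). The libraries did not overlap there. Dbp, a D-box activator that is a direct E-box target, was at 61.9, 68.6 and 64 CPM and at 60.7, 84.5, 63.5 and 88.1 CPM (0.19 ± 0.17, adjusted p = 0.569). Its groups overlapped. Hlf (0.50 ± 0.14, adjusted p = 0.0804), Tef (0.05 ± 0.06) and Bhlhe40 (-0.24 ± 0.09) did not pass either.

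**Figure D3:**
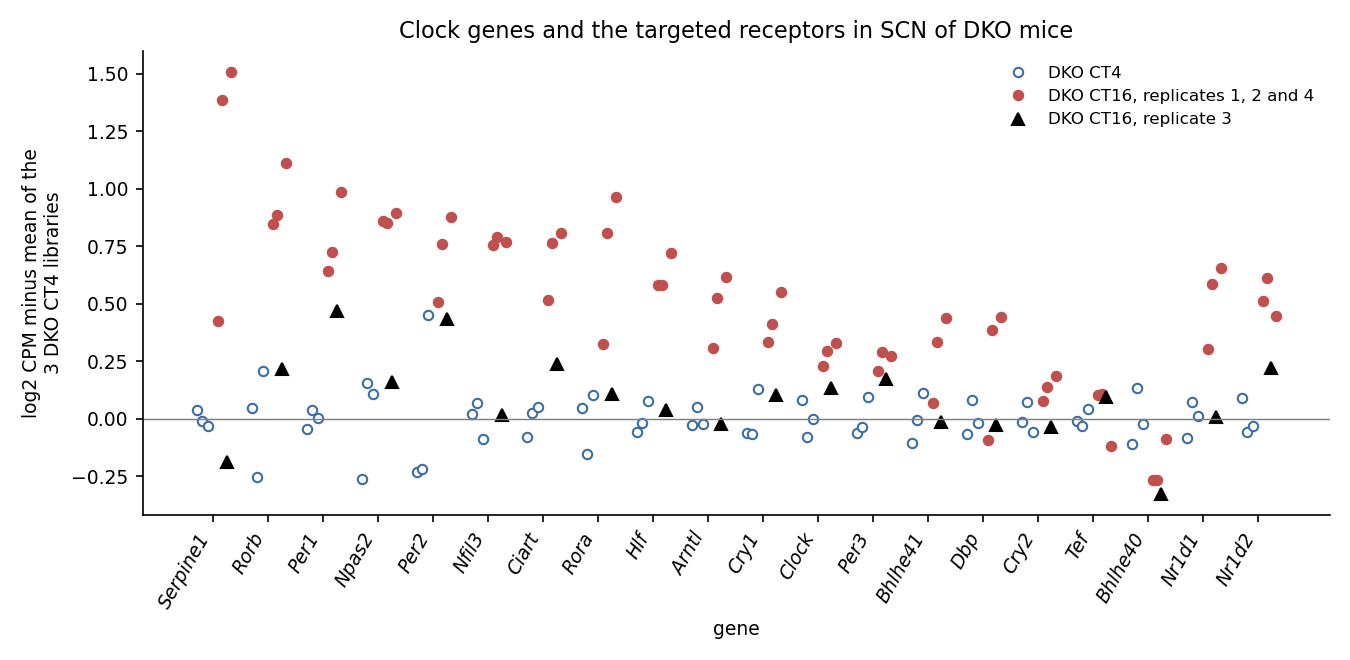
Genes of the clock lists and the 2 targeted receptors in DKO (horizontal axis) with log2 CPM of each library minus the mean of the 3 DKO CT4 libraries (vertical axis). Open circles are CT4, filled circles CT16 replicates 1, 2 and 4, and triangles CT16 replicate 3, which for many of these genes, such as Nfil3 and Npas2, lies near the CT4 libraries.

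E-box letters (CACGTG) in capitals are shown for 3 of these repressors, since the BMAL1 complex acts through E-boxes. The RefSeq windows are of GRCm38.p6, 5′ to 3′ on the strand of the gene.
Per1 (chr11:69098753-69098818, plus strand): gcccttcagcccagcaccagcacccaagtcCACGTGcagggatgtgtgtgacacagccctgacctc
Cry1 (chr10:85185079-85185144, minus strand): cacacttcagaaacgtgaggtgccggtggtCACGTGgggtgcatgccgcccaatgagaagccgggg
Ciart (chr3:95882232-95882379, minus strand): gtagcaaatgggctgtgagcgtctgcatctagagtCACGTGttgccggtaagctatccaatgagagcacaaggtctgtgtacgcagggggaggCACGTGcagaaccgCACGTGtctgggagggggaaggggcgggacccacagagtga
The match begins at -166 from the start site in Per1 and at -60 in Cry1, and Ciart holds 3 matches. CACGTG, which reads the same on both strands, was found for 27 of 169 genes higher at CT16 with a window, 4 of 63 lower genes and 1371 of 12563 tested genes (10.9%), and in 7.15% of all windows. Of the 21 clock and targeted genes, 17 have a window and 5 of these hold the letters. The ROR/REV-ERB response element, searched by its consensus, was found for 1 of 169 higher genes, 0 of 63 lower genes and 33 of 12563 tested genes, and in 0.384% of all windows.

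The transcripts of the targeted genes were present in every DKO library. Nr1d2 (chr14:18204056-18239106) was at 180, 163 and 166 CPM at CT4 and at 242, 259, 198 and 231 CPM at CT16, and the rise of 0.45 ± 0.08 passed (adjusted p = 0.00928). Nr1d1 (chr11:98767932-98775377) was at 226, 252 and 242 CPM at CT4 and at 296, 360, 241 and 378 CPM at CT16 (0.41 ± 0.14, adjusted p = 0.136). Replicate 3 lay within the CT4 range for Nr1d1. Without it, the change of Nr1d1 was 0.52 (adjusted p = 0.0099). In control, Nr1d1 was at 198, 282 and 248 CPM at CT4 and at 150, 144, 146, 144 and 135 CPM at CT16, a fall of 0.75 on the log2 scale (adjusted p = 0.00589). The difference between the genotypes was 1.16 ± 0.19 (adjusted p = 0.0517).

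The 86 genes lower at CT16 were 28.3% of the calls, a share that was 48.7% without DKO CT16 replicate 3 and 48.5% with limma voom. Among Notch and Wnt genes, which maintain glial and vascular states, 3 of 23 fell and 0 rose, beside 0.509% of all genes falling. Hes5, a direct Notch target, was at 11.4, 12.7 and 12.3 CPM at CT4 and at 3.52, 4.61, 7.36 and 4.3 CPM at CT16 (-1.29 ± 0.19, adjusted p = 0.00291). Every CT16 library was below every CT4 library. Heyl, from the same family of Notch targets, fell by 0.56 on the log2 scale (adjusted p = 0.00658) and Wnt7b, a ligand for brain vessels, by 0.50 (adjusted p = 0.0342). The count was 8 without DKO CT16 replicate 3, where 712 genes fell in all. It was 1 with the neighbouring nuclei score as a covariate and 0 in the fit on DKO libraries alone.

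Genes of blood vessels and microglia, the immune cells of the brain, were among the falls. In the endothelial list 2 of 14 fell and 1 rose, beside 0.509% of all genes falling and 1.29% rising. The falls were 1 without DKO CT16 replicate 1 or 2, or without DKO CT4 replicate 2 or 3, and also with the neighbouring nuclei score, with the replicate block and in the fit on DKO libraries alone. Cldn5, the tight junction protein of the blood-brain barrier, was at 27.8, 23.6 and 28.1 CPM at CT4 and at 11.7, 14.4, 16.1 and 17.3 CPM at CT16 (-0.83 ± 0.13, adjusted p = 0.00291). Kdr, a receptor for vascular endothelial growth factor, fell by 0.77 (adjusted p = 0.0226). Slc2a1, the glucose transporter GLUT1, moved the other way, from 117, 111 and 110 CPM to 169, 205, 208 and 188 CPM (0.77 ± 0.07, adjusted p = 1.42e-05). The summed endothelial CPM, which includes Slc2a1, was 434 to 454 at CT4 and 487 to 531 at CT16. The endothelial score, the mean centred log2 CPM of the list, was not higher at CT16, with 0.101 to 0.148 at CT4 and 0.019 to 0.121 at CT16.

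In the microglial list 2 of 14 fell, Cx3cr1 and P2ry12, beside 0.509% of all genes falling, and the median over the list was -0.217. Cx3cr1, the fractalkine receptor, was at 44.5, 50.5 and 49 CPM at CT4 and at 26.9, 27.5, 27 and 40.5 CPM at CT16 (-0.66 ± 0.14, adjusted p = 0.0275). Replicate 4, the library rich in myelin, was the highest at CT16. P2ry13, a purine receptor related to P2ry12, was at 8.38, 8 and 9.77 CPM against 3.92, 4.46, 4.3 and 5.28 CPM (-0.96 ± 0.13, adjusted p = 0.000978). The summed microglial CPM was 477 to 540 at CT4 and 343 to 604 at CT16, and no member was at 0 in all libraries of either DKO group. Whether the number of microglia moved with the result was not tested. The list had 0 falls without DKO CT16 replicate 1 or 2 or any 1 of the 3 DKO CT4 libraries, 1 without control CT4 replicate 3, and 4 without DKO CT16 replicate 4. It also had 0 with the neighbouring nuclei score as a covariate and in the fit on DKO libraries alone.

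The remaining large falls had varied roles. Lgr6, a receptor for R-spondins, fell by 1.21 (adjusted p = 0.0312), Kcnk12, a potassium channel subunit, by 0.92 (adjusted p = 0.00603), and Spint1, a protease inhibitor, by 0.92 (adjusted p = 0.038). Tap1, a peptide transporter for antigen presentation, fell by 0.96 (adjusted p = 0.0371), and H2-D1, a class I antigen, by 0.46 (adjusted p = 0.0106). Socs3, an inhibitor of cytokine signalling, fell by 0.95 (adjusted p = 0.0331), Slc13a5, a citrate transporter, by 0.76 (adjusted p = 0.0218), and Sowahb by 0.84 (adjusted p = 0.0342). Foxb1, a transcription factor of neighbouring hypothalamus, was at 4.34, 3.81 and 3.34 CPM at CT4 and 1.94, 2.27, 1.95 and 1.85 CPM at CT16 (-0.94 ± 0.16, adjusted p = 0.00586). It is a member of the neighbouring nuclei list, in which 1 of 30 fell with a list median of -0.674 and summed CPM of 1020 to 1120 at CT4 and 599 to 969 at CT16.

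Metabolic and signalling lists held scattered calls, beside 1.29% of all genes rising and 0.509% falling in DKO and 2.13% rising in control. In fatty acid and lipid handling 4 of 28 rose: Plin4, Pla2g3, Acsl3, an acyl-CoA synthetase (0.32 ± 0.07, adjusted p = 0.0211), and Pnpla2, the triglyceride lipase of fat stores (0.34 ± 0.08, adjusted p = 0.0303). In insulin and feeding signals 1 of 22, Socs3, fell and 3 rose: Irs2, an insulin receptor substrate (0.73 ± 0.11, adjusted p = 0.00352), Igf1r (0.28 ± 0.05, adjusted p = 0.0124) and Slc2a1. Usp2, a deubiquitinase that acts on clock proteins, was at 27.5, 30.8 and 29.5 CPM at CT4 and at 51, 53.5, 47.7 and 59.5 CPM at CT16 (0.85 ± 0.10, adjusted p = 0.000386). Among chaperones and stress genes of the endoplasmic reticulum 3 of 20 rose, Herpud1, which aids degradation of misfolded proteins (0.39 ± 0.06, adjusted p = 0.00298), Sdf2l1 (0.48 ± 0.10, adjusted p = 0.0278) and the secreted factor Manf (0.36 ± 0.09, adjusted p = 0.0482), against 14 of 20 in control. The count was 1 without DKO CT16 replicate 1 or any 1 of the DKO CT4 libraries. It was 6 without DKO CT16 replicate 3, where 1461 genes were called in all. It was 0 in the fit on DKO libraries alone and with the neighbouring nuclei score as a covariate, and 7 with the myelin score. Of the 21 heat shock and cytosolic chaperones 1 rose, Chordc1, an HSP90 cochaperone (0.47 ± 0.08, adjusted p = 0.00376), against 9 in control. The count was 3 without DKO CT16 replicate 3, and 2 without its replicate 4 or control CT16 replicate 5. It was 0 in the fit on DKO libraries alone and with the neighbouring nuclei score, and 3 with the myelin score. The edgeR test of the difference between the genotypes, which called 0.0118% of all genes, passed for 0 members of either chaperone list. The unadjusted p was under 0.05 for 6 and 5 members, beside 15.1% of all tested genes. DESeq2 and limma voom each called 0 of the endoplasmic reticulum list and 2 of the cytosolic list for this difference. Their counts over all genes are given at the end.

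The lists that mark the SCN held no call by edgeR in DKO. Of 18 SCN neuropeptides 0 passed, with 5 higher and 2 lower at an unadjusted p under 0.05, and DESeq2 and limma voom each called 1 rise and 1 fall. Of 19 SCN identity genes 0 passed, with 6 higher and 0 lower at an unadjusted p under 0.05. DESeq2 called 4 rises in this list and limma voom 2. Over all tested genes 18.6% had an unadjusted p under 0.05 in either direction. The larger counts of DESeq2 and limma voom over all genes are given at the end. The medians were 0.296 and 0.318. The summed CPM of neighbouring nuclei markers was lower at CT16 than at CT4, while their score in replicate 3 lay inside the CT4 range, as given above. Vip, a peptide of light-receiving SCN neurons, was at 27.9, 22.3 and 24.6 CPM at CT4 and at 42.3, 57.6, 19.1 and 80 CPM at CT16 (0.99 ± 0.58, adjusted p = 0.394). Avp, a peptide of the SCN shell and of neighbouring nuclei, was at 444, 498 and 462 CPM at CT4 and at 148, 198, 412 and 225 CPM at CT16 (-0.93 ± 0.66, adjusted p = 0.49). These 2 genes were chosen after their values were seen. In both, replicate 3 lay near the CT4 libraries, and the intervals of the change, -0.29 to 2.27 for Vip and -2.38 to 0.52 for Avp, include 0 as well as changes of more than 2-fold.

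Single genes of other lists also passed. Gadd45g, a growth arrest gene, rose by 0.87 ± 0.14 (adjusted p = 0.00491), and Frmpd1 rose by 0.63 ± 0.08 (adjusted p = 0.000978), from 40.6, 44.7 and 36.3 CPM to 68.8, 65.6, 58.8 and 58.1 CPM. Of the channel and receptor genes, Kcnn2, a calcium-activated potassium channel, rose by 0.42 ± 0.10 (adjusted p = 0.0344), Cacna1c, an L-type calcium channel, by 0.26 ± 0.06 (adjusted p = 0.038), and Galr1, a galanin receptor, by 0.60 ± 0.14 (adjusted p = 0.0342). Col1a2, a collagen of the meninges and vessel walls, rose by 0.50 ± 0.10 (adjusted p = 0.0153). In the list of astrocyte markers 1 of 16 rose and 2 fell, beside 1.29% of all genes rising and 0.509% falling. The list median was -0.00457. Gjb6 rose, and Sox9, a glial transcription factor, fell by 0.39 on the log2 scale (adjusted p = 0.036). Mfge8, a bridging protein for phagocytosis, fell by 0.31 (adjusted p = 0.0492). Bcan, the matrix protein brevican, was at 286, 328 and 309 CPM at CT4 and at 233, 232, 253 and 254 CPM at CT16 (-0.34 ± 0.06, adjusted p = 0.00594). Thra, the thyroid hormone receptor alpha, was at 336, 338 and 328 CPM against 263, 237, 316 and 229 CPM (-0.35 ± 0.09, adjusted p = 0.0482), and was lost in 17 of 27 alternatives. Replicate 3 was again the CT16 library nearest to CT4 for Thra.

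**Figure D4:**
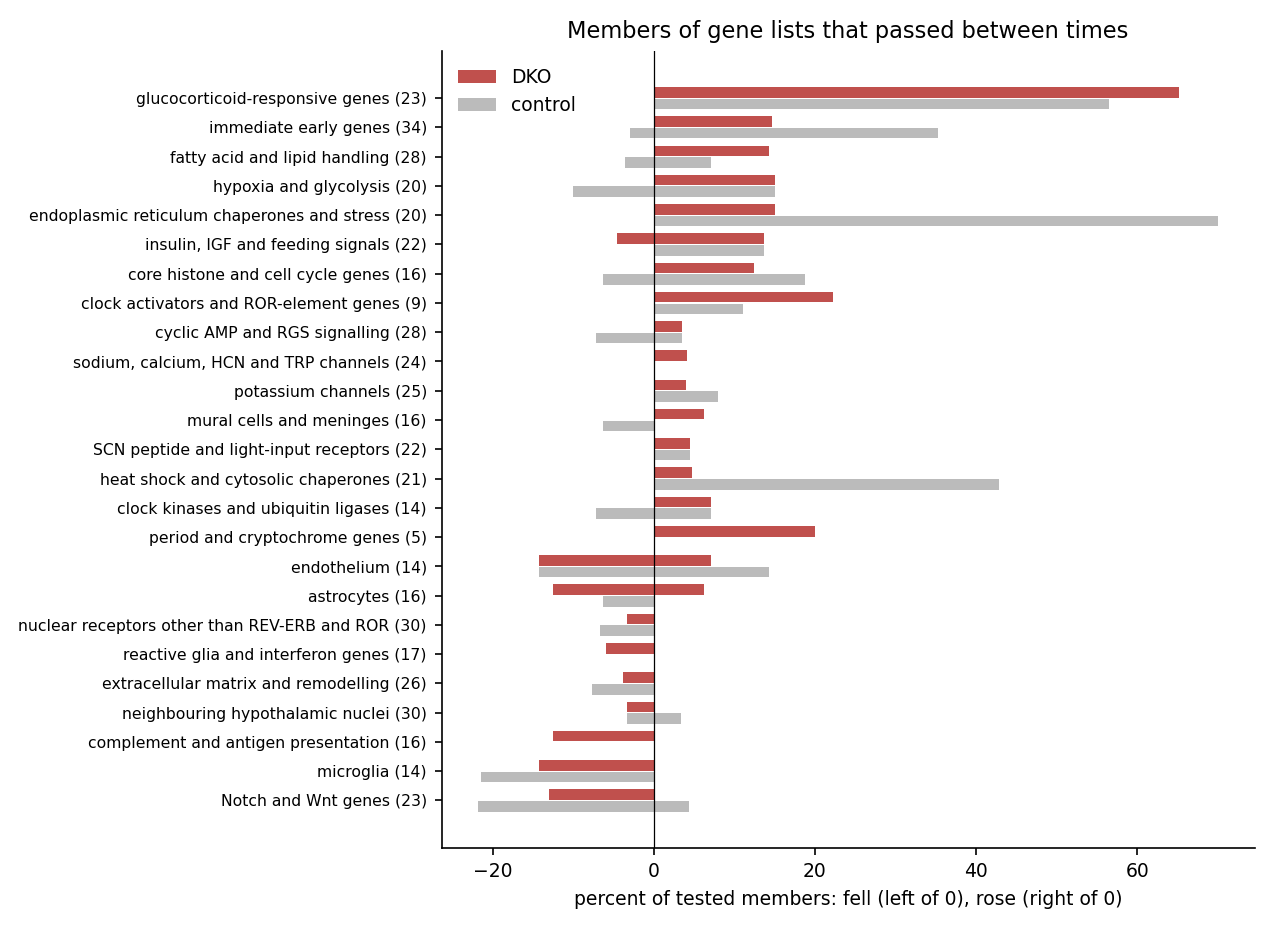
Share of tested members of each gene list that rose (right of 0) or fell (left of 0) between CT4 and CT16, in DKO (red) and control (grey), for the lists with at least 1 call in DKO. List sizes are in brackets, and the glucocorticoid list is the highest in DKO with 15 of 23. The lists were drawn up with earlier results of these data known.

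In control mice, compared over separate libraries with the same estimate of spread, 712 genes differed between the times (4.21%), 360 higher (2.13%) and 352 lower (2.08%) at CT16. Of the 304 genes called in DKO, 118 were also called in control, which is 38.8% of the DKO calls and 16.6% of the control calls. All 118 went the same way, 87 higher and 31 lower. Over all 304, 255 (83.9%) had the same sign in control. The share with the same sign over all tested genes was not counted. The DKO rises had a median change of 0.426 in DKO and 0.237 in control, and the DKO falls of -0.54 and -0.25. Since genes were chosen on the DKO values, a smaller median in control is built into this choice. Of the glucocorticoid-responsive genes 13 of 23 rose in control and 12 rose in both. The difference between genotypes passed for 0 of the 23 in edgeR, for 0 in DESeq2 and for 1 in limma voom. For 7 of the 23 the unadjusted p of edgeR was under 0.05, beside 15.1% of all tested genes. Tsc22d3 was at 61, 52.8 and 55.8 CPM in control at CT4 and 173, 205, 195, 180 and 197 CPM at CT16.

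**Figure D5:**
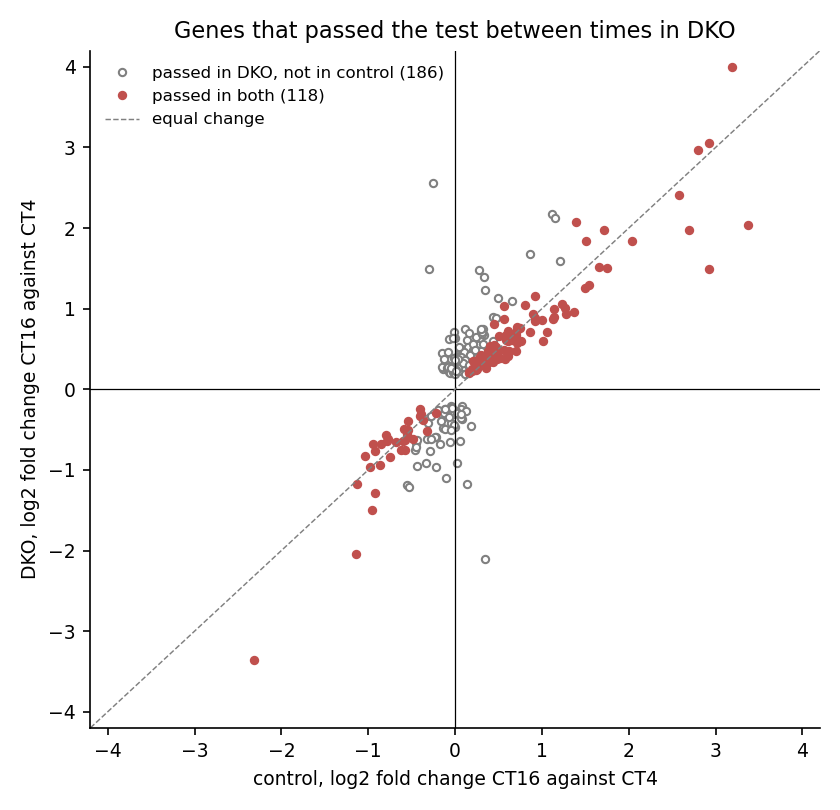
Log2 fold change from CT4 to CT16 in control (horizontal axis) and DKO (vertical axis) for the 304 genes called in DKO, filled where control also passed (118) and open where it did not (186). Points on the dashed line change equally, and none of the 118 lies in a quadrant of opposite sign.

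The test of the difference between genotypes called 2 genes (0.0118%), Fabp7 and Pla2g3, and 2557 genes had an unadjusted p under 0.05. Fabp7, the brain fatty acid binding protein of radial glia and astrocytes, was at 57.4, 44.9 and 41.4 CPM in control at CT4 and at 11.1, 11.9, 9.91, 14.1 and 10.1 CPM at CT16, a log2 change of -2.07 (adjusted p = 2.25e-05). In DKO it was at 119, 122 and 113 CPM at CT4 and at 155, 192, 111 and 164 CPM at CT16 (0.39 ± 0.17, adjusted p = 0.228). The difference was 2.46 ± 0.24 (adjusted p = 0.00192). Pla2g3 was at 4.17, 5.51 and 4.82 CPM in control at CT4 and at 5.09, 3.44, 3.89, 3.07 and 4.28 CPM at CT16, and its difference was 1.79 ± 0.27 (adjusted p = 0.0382). For Hif3a the difference, DKO minus control, was -1.43 ± 0.23 and did not pass (adjusted p = 0.0511).

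For the clock genes the difference between genotypes was above 0 in 17 of 19, and its median over all tested genes was 0.0155. The share above 0 over all tested genes was not counted. The unadjusted p was under 0.05 in 11, beside 15.1% of all tested genes. The difference passed adjustment in 0 with edgeR, 6 with DESeq2 and 5 with limma voom, whose counts over all genes are given below. In control 1 of the 19 rose, Nfil3, and 2 fell, Bhlhe40 and Dbp. Dbp was at 33.6, 33.3 and 38 CPM in control at CT4 and at 20, 27.1, 19.1, 16 and 17.1 CPM at CT16. Its change was -0.81 in control and 0.19 in DKO, and the difference was 1.01 ± 0.23 (adjusted p = 0.113). Without DKO CT16 replicate 3 the test of the difference called 298 genes. Of the 19 SCN identity genes, which include Rora and Rorb, 10 had an unadjusted p under 0.05 for the difference. In control their summed CPM was 1070 to 1740 at CT4 and 955 to 1290 at CT16. In DKO it was 1020 to 1080 and 1020 to 1850. For neighbouring nuclei markers it was 605 to 1000 and 899 to 1320 in control, and 1020 to 1120 and 599 to 969 in DKO. The part of tissue content in the differences between genotypes was not tested.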

How the data were processed

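Raw counts per gene, not normalized, were deposited by the authors for all libraries in 1 table, with exonic length and position, per the file headers. STAR, featureCounts, DESeq2 and mm10 are named in the submitters' processing notes. The sources used here do not give their versions, the annotation or the use of strand, so overlapping and antisense genes cannot be told apart.

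All 15 libraries were fitted with edgeR 4.0.16 (R 4.3.3): genes filtered by filterByExpr over the 4 groups, TMM factors, 4 group means, robust quasi-likelihood test with 11 residual degrees of freedom, and Benjamini-Hochberg adjustment over 16910 genes, called at 0.05. CPM were TMM-scaled. The comparison was DKO CT16 minus DKO CT4, with the same contrast in control and the difference of both. The gene lists (47, with 787 tested members) and the naming rule were chosen with earlier results of these data known. The rule names the targeted receptors and clock lists, the 12 largest called rises and 12 largest falls without overlap between times and with a mean log2 CPM of 1 or more, the 12 smallest p-values of the difference, and up to 4 members of each list with a call or 2 of any other. The pipeline was tested on simulated data with known changes. Alternatives were DESeq2 1.42.0, voom of limma 3.58.1, RLE or upper quartile scaling, other filters, single-genotype fits, a replicate block, tissue covariates and left-out libraries. List counts under these alternatives were added after seeing the data. One list member counted in the totals is not reported here by name. Of 165 named genes, 130 had a RefSeq promoter window. Replicate numbers were not taken to pair samples. Deviations of same-numbered DKO libraries correlated at 0.1, 0.069 and 0.05, above the -0.068 to 0.041 of differently numbered ones. Pairing is therefore not excluded.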

Additional observations from a re-analysis of the deposited data

Results flagged for a closer look

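Of 93 quantities examined in the 4 DKO CT16 libraries, 10 had 1 library apart from the rest by Dixon's criterion, where chance gives about 1 in 20. In replicate 3, Npas2 (44.96 CPM) and Nfil3 (22.89 CPM) were lower than in the other CT16 libraries, as was the summed CPM of forebrain genes outside the hypothalamus (163.9), and Mfge8 (67.81 CPM) was higher. In replicate 4, Tef (342.2 CPM) was lower, and Cx3cr1 (40.54 CPM) and H2-D1 (13.26 CPM) were higher. Igf1r was higher in replicate 2 (105.9 CPM), Cacna1c was higher in replicate 1 (155.2 CPM) and Pnpla2 was lower there (40.89 CPM).

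For 2 genes the time change differed between genotypes in edgeR's test of the difference. The DKO change minus the control change was 2.462 for Fabp7 and 1.793 for Pla2g3 on the log2 scale.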

How the results depend on the processing

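Of the 58 named genes called in DKO, 0 changed sign under any of the 27 alternatives, and of the other named genes 6 did. Rora, for example, went from 0.59 to -0.00802 with the neighbouring nuclei score. RLE and upper quartile factors and both other filters kept the DKO count within 1.5 times of 304, and the median change of all genes was -0.0134 to 0.0078 over the scalings. The higher calls were 71.7% of the DKO calls in the reported fit, 63% with DESeq2, 51.5% with limma voom, 51.3% without DKO CT16 replicate 3 and 88.7% with the neighbouring nuclei score. In control they were 50.6%, and 47% with the replicate block, 49.4% with voom and 41.4% with upper quartile factors. DESeq2 called 874 genes in DKO (551 higher, 323 lower), 1317 in control (691 and 626) and 360 for the difference between genotypes. With limma voom these were 1310 (675 and 635), 1816 (897 and 919) and 420. The fit on one genotype alone called 47 genes in DKO (41 and 6). Without the filter on low counts the difference called 6 genes. The replicate block assumes a pairing that is neither shown nor excluded. It gave 159 genes in DKO (118 and 41), 379 in control (178 and 201) and 1 for the difference. With the myelin score as covariate the counts were 1123 in DKO (672 and 451) and 83 for the difference. With the neighbouring nuclei score they were 71 in DKO (63 and 8) and 1 for the difference. Excluding both DKO CT16 replicates 3 and 4 gave 1097 in DKO (567 and 530), 1174 in control (581 and 593) and 114 for the difference. Excluding control CT4 replicate 1 as well gave 1184 in DKO (614 and 570) and 423 for the difference. The causes of these shifts were not tested.

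Leaving out each library in turn gave 103 to 1461 genes in DKO (86 to 749 higher, 17 to 712 lower), 235 to 1057 in control (130 to 531 and 105 to 526) and 1 to 298 for the difference. The lowest DKO count came without CT4 replicate 2 and the highest without CT16 replicate 3. Of the 58 named genes called in DKO, 12 passed in every alternative: Plin4, Cdkn1a, Tsc22d3, Pla2g3, Hif3a, Sult1a1, Usp2, Slc2a1, Frmpd1, Gjb6, P2ry13 and Cldn5. The neighbouring nuclei score took away 42 of the 58 calls and leaving out DKO CT4 replicate 3 took away 33. With 3 and 4 libraries a time, a gene that did not pass is not shown to be constant.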
